A study of Homo sapiens with 6 samples.

Results

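The subject here is 10 tubulin genes, 4 alpha (TUBA1A, TUBA1B, TUBA1C, TUBA4A) and 6 beta (TUBB, TUBB2A, TUBB2B, TUBB3, TUBB4B, TUBB6). They were picked by name from a table of 58051 Ensembl genes and not by a rule on their values, though earlier results of these data were known. The samples were NTera-2 (NT2), labelled as an embryonal carcinoma line, which is a tumour line of germ cell origin. By title, 3 RNA-seq libraries are of cells with mimics that overexpress piR-36249, a PIWI-interacting small RNA, and the 3 control libraries are of cells with its scramble. The genotype field of the mimic libraries instead reads knockdown, so every direction below is that of the libraries titled mimics minus those titled scramble. No culture, dose, time or batch is labelled, and a p-value here covers the spread among libraries that may be technical repeats. In bulk RNA, fewer cells of a type and less RNA per cell cannot be told apart.

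Alpha- and beta-tubulin pair into dimers that polymerise into microtubules, the filaments of the spindle, of intracellular transport and of cilia. Each protein comes from several genes, called isotypes, that differ mostly in the acidic tail at the end of the protein, where enzymes add or remove residues. Cells are known to adjust tubulin mRNA to the pool of free dimers: TTC5 recognises the first residues of the nascent chain on the ribosome, and the mRNA is then degraded through SCAPER and the CCR4-NOT deadenylase. TUBA1A is the alpha isotype of the developing nervous system, TUBB3 and TUBB2B are best known from neurons, TUBB6 is broadly expressed, and TUBB4B is abundant in dividing and ciliated cells.

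The coding starts are shown because the nascent chain is read there; codons 2 to 4 are in capitals. The first 30 coding bases (GENCODE release 29 transcripts, base 1 is the A of the start codon) were the same in TUBA1A, TUBA1B and TUBA1C.
TUBA1A: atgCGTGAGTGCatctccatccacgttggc
TUBA4A: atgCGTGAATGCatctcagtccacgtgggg
TUBB: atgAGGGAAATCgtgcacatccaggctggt
TUBB4B: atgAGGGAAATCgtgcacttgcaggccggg
TUBB6: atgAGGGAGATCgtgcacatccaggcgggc

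The coding ends of the abundant beta genes are shown because they encode the tail that separates the isotypes. Capitals mark bases that differ from TUBB after alignment of the last 60 coding bases, the stop codon included. Capitals cover both substituted bases and bases that stand opposite a gap. TUBB4B had 11 substitutions and 6 gap positions in the alignment with TUBB, counted over both sequences, and TUBB6 had 17 and 12.
TUBB: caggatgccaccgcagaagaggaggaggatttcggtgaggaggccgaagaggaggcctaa
TUBB4B: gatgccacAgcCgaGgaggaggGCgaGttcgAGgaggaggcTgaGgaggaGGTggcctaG
TUBB6: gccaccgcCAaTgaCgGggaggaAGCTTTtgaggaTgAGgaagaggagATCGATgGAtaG

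TUBA1A, TUBA1B and TUBA1C moved in different directions between the groups. With mimic, TUBA1A rose, TUBA1B and TUBA1C fell, and among the beta genes TUBB4B fell. The other 6 members did not pass the test. The values are FPKM, the authors' read numbers scaled to gene length and library size, and differences were tested with limma on log2(FPKM + 1), a scale that understates the change of low genes. All 10 members lay above the filter of a mean of 0.5 FPKM. The 4 called members make 40% of the 10, with 3 lower and 1 higher, while 35.5% of all 12912 tested genes were called, 16.8% lower and 18.7% higher. The members' share is thus close to that of all genes, and no more is read from the count. The groups were apart, with no overlap of libraries, in the same 4 members and in 49.2% of all tested genes. Their median log2 difference was -0.01, beside 0.00 for all tested genes.

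Before the groups are compared, the labelled cell type was set against its markers. Of 10 embryonal carcinoma markers, 5 were listed at 0 in every library, among them NANOG and SOX2, and 2 were above 1 FPKM in all. These were DNMT3B and PODXL, and both rose (log2 0.58 and 0.26), PODXL with a call lost in 5 of 16 alternatives. Of 13 neuronal markers, 8 were listed at 0 in every library and none was above 1 FPKM throughout. Of 11 endothelial markers, 8 were above 1 FPKM in all libraries, and 7 of these rose, beside 18.7% of all tested genes. KDR, VWF and CLDN5 were under the filter, with means over all libraries of 0.019, 0.43 and 0.11 FPKM. The summed level of the 11 markers ran from 702 to 765 FPKM with mimic and from 587 to 630.1 with scramble. The absence of core embryonal carcinoma markers and the abundance of most endothelial ones, in both groups, go against the labelled cell type. The libraries are therefore called here by their titles, and the tubulin values describe cells of that profile. The 7 fibroblast markers were all under the filter, with a sum of 1.21 to 1.49 FPKM with mimic and 0.654 to 0.800 with scramble. Of these, COL1A1 and PDGFRB had log2 fold changes of 1.33 and 1.25 in the authors' deposited table. The platelet markers summed to at most 0.212 FPKM. Of 14 proliferation genes 12 fell, beside 16.8% of all tested genes, with UBE2C at -0.95 and CDC20 at -0.71 on the log2 scale. The sum of the 14 genes ran from 569 to 592 FPKM with mimic and from 841 to 867 with scramble. The part of these shifts in the tubulin differences was not tested.

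**Figure D1:**
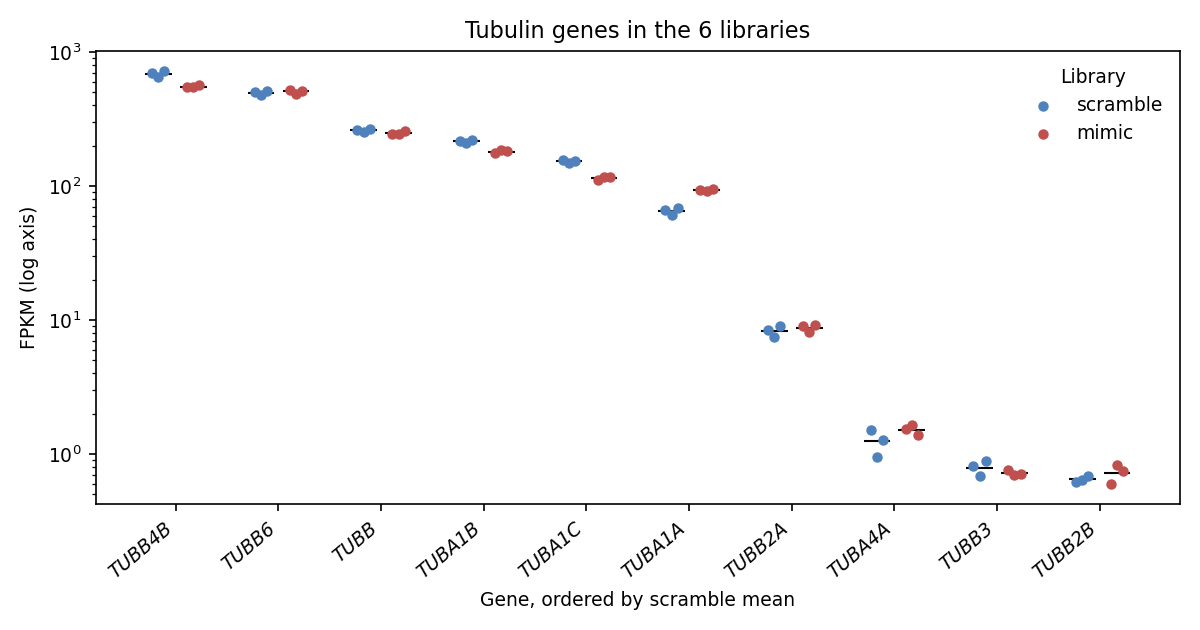
FPKM of the 10 tubulin genes on a log axis, with 1 point per library (blue scramble, red mimic) and a bar at each group mean. The mimic points lie above the scramble points for TUBA1A and below them for TUBB4B, TUBA1B and TUBA1C, and overlap them for the other 6 genes.

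The alpha genes of chromosome 12 carried nearly all alpha-tubulin reads. TUBA1A (ENSG00000167552, chromosome 12, 49184796 to 49189324, minus strand, GRCh38) measured 93.0, 92.2 and 94.8 FPKM in mimic replicates 1 to 3 and 65.6, 60.5 and 67.9 in scramble replicates 1 to 3. The lowest mimic library lay above the highest scramble library, as in 26% of all tested genes. The means were 93.3 ± 1.33 and 64.7 ± 3.79 FPKM (SD, n = 3 each), a ratio of 1.44. Its log2 difference was 0.52 (SE 0.048, adjusted p = 0.000206 with limma), the largest change in either direction among the 10 members.

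TUBA1B (ENSG00000123416, chromosome 12, 49127782 to 49131397, minus strand), the alpha isotype most widely used by cells, measured 175, 184 and 182 FPKM with mimic and 215, 208 and 221 with scramble. All 3 mimic libraries lay below all 3 scramble libraries, as in 23.2% of tested genes. The means were 180.4 ± 4.91 and 214 ± 6.64 FPKM, a log2 difference of -0.25 (SE 0.041, adjusted p = 0.00298 with limma).

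TUBA1C (ENSG00000167553, chromosome 12, 49188736 to 49274603, plus strand) had the larger fall of the pair. It measured 109.8, 116.1 and 115.8 FPKM with mimic and 156, 148 and 154 with scramble, again without overlap. The means were 114 ± 3.53 and 153 ± 4.18 FPKM, a ratio of 0.746 and a log2 difference of -0.42 (SE 0.041, adjusted p = 0.000263 with limma). In exact two-sided permutation tests TUBA1A, TUBA1B, TUBA1C and TUBB4B each gave p = 0.1, and no smaller p is possible with 3 libraries a group.

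TUBA4A (ENSG00000127824, chromosome 2, 219249711 to 219278170, minus strand), an alpha isotype known to lack the final tyrosine codon of the others, was low. It measured 1.53, 1.63 and 1.37 FPKM with mimic and 1.52, 0.942 and 1.2599 with scramble. Scramble replicate 2 was the lowest library and replicate 1 lay among the mimic values, so the groups overlapped. The log2 difference was 0.17 (95% interval -0.06 to 0.40, adjusted p = 0.218 with limma).

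Within the alpha pool, TUBA1A took a larger share in the mimic libraries. It made 24.6%, 23.5% and 24.1% of the summed FPKM of TUBA1A, TUBA1B and TUBA1C in the mimic libraries and 15.0%, 14.5% and 15.3% in the scramble libraries. TUBA1C made 29.4 ± 0.264% with mimic and 35.4 ± 0.577% with scramble, and TUBA1B 46.5 ± 0.336% and 49.7 ± 0.423%. The sum of the 3 genes was 378, 392 and 393 FPKM with mimic and 437, 416 and 442 with scramble, a ratio of 0.897. These sums and shares are descriptions of genes already tested one by one, so they carry no test.

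**Figure D2:**
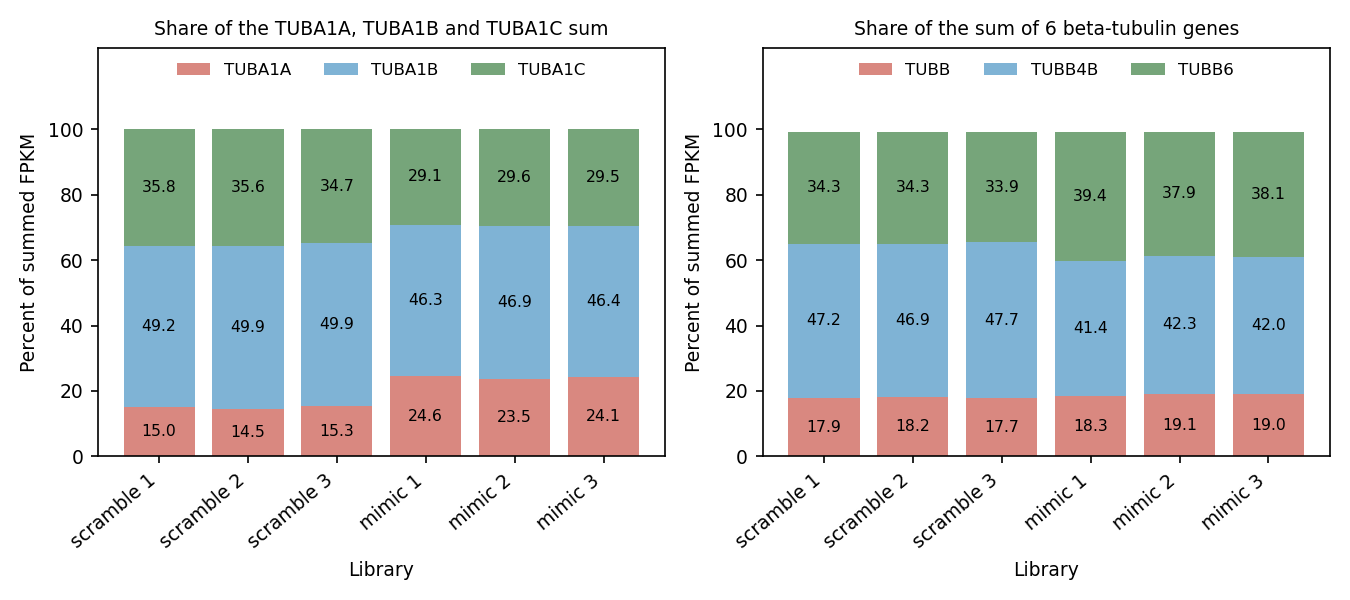
Percent of summed FPKM in each of the 6 libraries, on the left for TUBA1A, TUBA1B and TUBA1C and on the right for TUBB, TUBB4B and TUBB6 as shares of the sum of all 6 beta genes. The TUBA1A block grows from between 14.5% and 15.3% in the scramble libraries to between 23.5% and 24.6% in the mimic libraries, and the TUBB4B block shrinks from between 46.9% and 47.7% to between 41.4% and 42.3%.

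Among the beta genes, TUBB4B (ENSG00000188229, chromosome 9, 137241213 to 137243707, plus strand) was the one that passed the test. It measured 547, 542 and 563 FPKM with mimic and 690.1, 651 and 715 with scramble. The groups did not overlap, and the means were 551 ± 10.9 and 685 ± 32.1 FPKM. The log2 difference was -0.31 (SE 0.048, adjusted p = 0.00208 with limma), and as a share of the summed beta FPKM it measured 41.9 ± 0.437% with mimic and 47.3 ± 0.428% with scramble.

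TUBB6 and TUBB, the other abundant beta genes, showed no difference beyond the spread between libraries. TUBB6 (ENSG00000176014, chromosome 18, 12307669 to 12344320, plus strand) measured 521, 485 and 511 FPKM with mimic and 501, 476 and 507 with scramble, with overlapping groups. Its log2 difference was 0.03, with a 95% interval of -0.08 to 0.14 (adjusted p = 0.630 with limma). TUBB (ENSG00000196230, chromosome 6, 30720201 to 30725426, plus strand), the beta isotype of most dividing cells, measured 242, 245 and 255 FPKM with mimic and 262, 252 and 265 with scramble. Mimic replicate 3 lay above scramble replicate 2, and the log2 difference was -0.07 with a 95% interval of -0.16 to 0.03 (adjusted p = 0.227 with limma).

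The isotypes best known from neurons were low in both groups. TUBB3 (ENSG00000258947, chromosome 16, 89921392 to 89938761, plus strand) measured 0.7545, 0.702 and 0.706 FPKM with mimic and 0.806, 0.680 and 0.886 with scramble. TUBB2B (ENSG00000137285, chromosome 6, 3224261 to 3231730, minus strand) measured 0.598, 0.826 and 0.741 with mimic and 0.618, 0.639 and 0.690 with scramble. For both genes the lowest value of 1 group lay inside the other group's range, and their order of level relative to each other did not hold over single libraries. The log2 differences were -0.06 (95% interval -0.22 to 0.11) for TUBB3 and 0.06 (-0.11 to 0.23) for TUBB2B.

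TUBB2A (ENSG00000137267, chromosome 6, 3153669 to 3157526, minus strand), the neighbour and near copy of TUBB2B, was about an order of magnitude more abundant. It measured 9.05, 8.07 and 9.17 FPKM with mimic and 8.36, 7.49 and 9.02 with scramble. Replicate 2 was the lowest library in both groups and the groups overlapped, with a log2 difference of 0.07 (95% interval -0.10 to 0.24, adjusted p = 0.473 with limma).

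**Figure D3:**
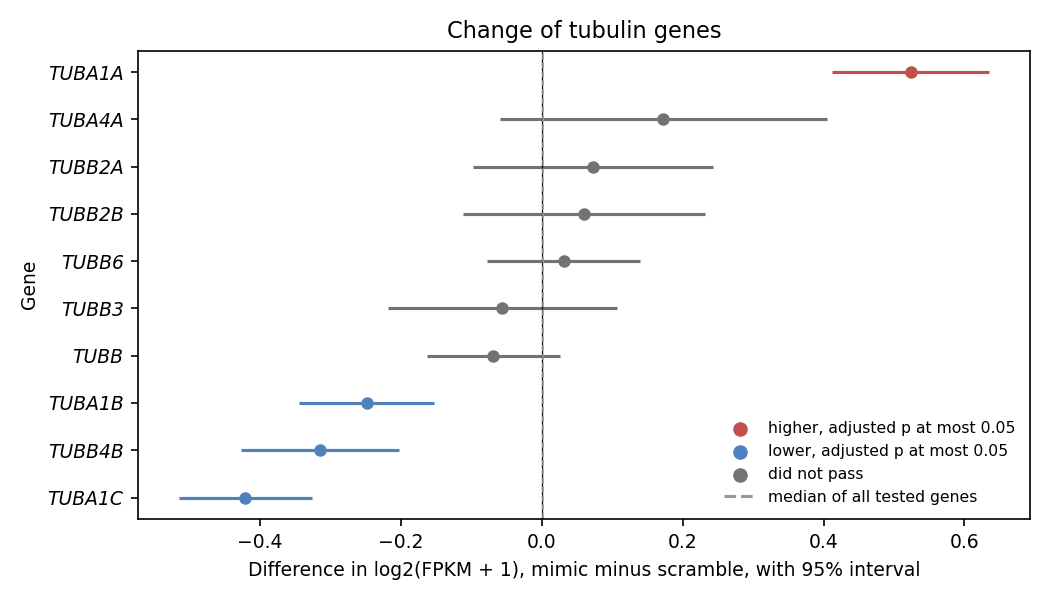
Difference in log2(FPKM + 1), mimic minus scramble, for the 10 tubulin genes with 95% intervals from limma; red marks a rise and blue a fall that passed the test, grey the rest, and the dashed line the median of all tested genes. TUBA1A stands at 0.52, TUBA1C, TUBB4B and TUBA1B at -0.42, -0.31 and -0.25, and the intervals of the other 6 genes include 0.

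The order of levels depended on the length used to scale the reads. In the deposited FPKM of the scramble libraries, TUBB4B was highest (685 ± 32.1), followed by TUBB6 (495 ± 16.4), TUBB, TUBA1B, TUBA1C and TUBA1A. In each group all library values of neighbours in the order of the 10 genes were apart, except for TUBB3 and TUBB2B. The FPKM match the union of all annotated exons as length, which for TUBB6 is 4117 bases against 2064 in its principal transcript, and for TUBB4B 2111 against 1637. With the principal transcript as length, TUBB6 came first in the scramble libraries (987 ± 32.7) and TUBB4B next (884 ± 41.4), and TUBA1B (471 ± 14.6) passed TUBB (327 ± 8.45). This choice does not alter a gene's ratio between groups. The summed beta level was 3.38 ± 0.116 times the summed alpha level with mimic and 3.35 ± 0.0252 times with scramble in the deposited FPKM, and 2.76 ± 0.105 and 2.68 ± 0.0149 times by principal transcript, with overlapping groups on both scales.

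**Figure D4:**
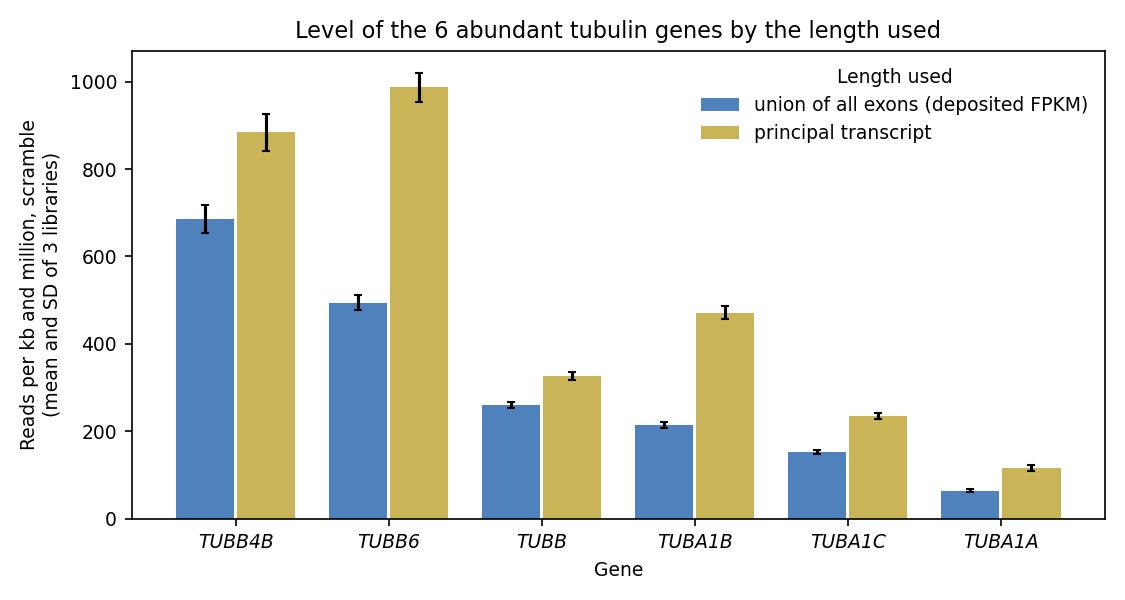
Level of the 6 abundant tubulin genes in the scramble libraries in reads scaled to length and depth, as mean with SD of 3 libraries, scaled by the union of all exons (blue, the deposited FPKM) or by the principal transcript (yellow). TUBB4B is the tallest blue bar at 685 and TUBB6 the tallest yellow bar at 987.

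The depth behind these values was high for the abundant members. FPKM times exon length gave whole reads for all 10 members, with 100978 to 129505 reads per library for TUBB6, 57015 to 91400 for TUBB4B and 10929 to 18650 for TUBA1A. TUBB2B had 74 to 98 reads, TUBB3 150 to 224 and TUBA4A 203 to 388, so their differences rest on few reads. Total depth ran from about 47988000 to about 62738000 recovered reads in a library, and 10 reads on 1 kb correspond to 0.159 to 0.208 FPKM.

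Tubulin genes resemble each other so closely that reads can be placed on the wrong copy or left out, by rules not given in the sources used here. Identity between coding sequences was 97.2% for TUBA1A and TUBA1B, 96.8% for TUBA1B and TUBA1C, 95.9% for TUBA1A and TUBA1C and 98.1% for TUBB2A and TUBB2B. Of all 100-base windows in the principal transcripts, 37.2% of TUBA1B, 18.3% of TUBA1A and 11.5% of TUBA1C occurred unchanged in another tubulin gene or pseudogene, and 19.1%, 6.91% and 6.77% of the 150-base windows did. TUBB2A had the largest share at 56.4% of 100-base windows, TUBB2B had 46.2%, TUBB4B had 2.86%, and TUBB6 had none. At 150 bases TUBB4B shared none. The split of reads among TUBA1A, TUBA1B and TUBA1C, and between TUBB2A and TUBB2B, is uncertain where windows are shared. Only unchanged windows of 100 and 150 bases were counted, so these shares do not bound that uncertainty.

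Exons shared with neighbouring genes add to this, since the use of strand is not given. Of the exon bases of TUBA1A, 14.3% lie opposite exons of TUBA1C, where the starts of both genes overlap. Of those of TUBA1B, 36.6% lie opposite the antisense gene AC011603.2, which measured 0.0989 FPKM with mimic and 0.175 with scramble. Of those of TUBB3, 35.8% lie on the same strand in AC092143.1, a readthrough gene that was listed at 0 in every library. For TUBA4A 15.4% lie opposite STK16, which had a mean of 5.24 FPKM with mimic against 1.51 for TUBA4A. For TUBB2B 7.93% lie opposite its overlapping gene PSMG4, at 1.36 with mimic against 0.722 for TUBB2B. Both neighbours were also the higher gene with scramble. For TUBB6 20.3% lie opposite its overlapping gene AFG3L2, at 18.7 with mimic against 506 for TUBB6. The effect of such overlaps on the levels of TUBB3, TUBA4A, TUBB2B and TUBB6 was not tested.

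Of 47 tubulin pseudogenes in the table, 35 were listed at 0 in all libraries and 2 had a mean of at least 0.5 FPKM. TUBAP2, a copy related to the alpha genes, measured 1.49, 1.88 and 1.86 FPKM with mimic and 2.56, 2.66 and 2.20 with scramble. It fell by 0.34 on the log2 scale (adjusted p = 0.0147 with limma), a call lost without scramble replicate 1 or without the filter on low values (adjusted p up to 0.0637). TUBBP1, related to TUBB, had a log2 difference of -0.17 (adjusted p = 0.296 with limma).

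Other genes of the tubulin superfamily were mostly at low levels. Of 13 further tubulin genes, 4 were above the filter and 1 rose. That gene was TUBG2, a gamma-tubulin of the nucleating ring, at 10.6 ± 0.0756 FPKM with mimic and 8.27 ± 0.289 with scramble (log2 0.32, adjusted p = 0.000988 with limma). Its more abundant paralog TUBG1 (-0.06), delta-tubulin TUBD1 (0.01) and epsilon-tubulin TUBE1 (-0.13) did not pass. The platelet isotype TUBB1, TUBB4A, TUBA8 and the TUBA3 genes had means under 0.5 FPKM, and TUBA4B was listed at 0.

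Positions on chromosome 12 were looked at after the values were seen. Within 200000 bases of the TUBA1 cluster, 14 other genes were tested, of which 3 rose and 5 fell, beside 35.5% called among all tested genes. On the TUBA1B side, LMBR1L rose by 1.14 on the log2 scale, RHEBL1 by 0.72 and DHH by 0.64, and further out ARF3 (-0.64) and WNT10B (-0.28) fell. On the TUBA1C side, TROAP (-0.42) and SPATS2 (-0.46) fell. PRKAG1 (-0.13) also passed, but lost its call in 14 of 16 alternatives.

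The start regions of TUBB4B and TUBA1B are shown because both genes fell and their upstream sequences differ. They are RefSeq promoter windows (GRCh38.p14), cut to the bases before both the RefSeq start and the GENCODE start of the principal transcript. The annotated TUBA1B gene reaches 49131397, just inside its stretch. Capitals mark CCAAT, the box bound by NF-Y, and TTTGAA, the core of an element of cell cycle genes, on either strand; the motifs do not overlap. The TUBB4B stretch is chr9:137241037-137241212, plus strand, and the TUBA1B stretch chr12:49131396-49131645, minus strand.
TUBB4B: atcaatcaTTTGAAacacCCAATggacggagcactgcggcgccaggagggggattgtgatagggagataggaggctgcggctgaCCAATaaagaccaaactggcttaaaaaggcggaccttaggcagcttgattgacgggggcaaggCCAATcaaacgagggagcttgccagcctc
TUBA1B: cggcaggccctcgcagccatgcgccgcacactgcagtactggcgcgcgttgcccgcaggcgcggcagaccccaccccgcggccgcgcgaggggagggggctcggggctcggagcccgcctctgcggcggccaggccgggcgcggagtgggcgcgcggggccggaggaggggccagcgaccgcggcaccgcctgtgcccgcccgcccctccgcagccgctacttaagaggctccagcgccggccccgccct

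In the 250 bases before the RefSeq start, CCAAT occurred in 7 of the 10 members and in 32.0% of all 34943 promoter windows, and TTTGAA in 2 of 10 (TUBB4B and TUBA1C) and in 13.4% of all windows. TUBB4B held CCAAT 3 times, TUBA1A 2 times, TUBA1C 1 time and TUBA1B 0 times. Of the genes that fell, TUBB4B and TUBA1C thus held both motifs in this window and TUBA1B neither. GGGCGG and TATAAA were also counted. GGGCGG occurred in 8 of the 10 members and in 42.5% of all windows, and TATAAA in 1 of 10 and in 10.8%. TUBA1B held GGGCGG 3 times, TUBA1C 2 times, and TUBB4B and TUBA1A 0 times. The windows are not alike. Only 75 bases of the TUBA1C window and 6 of the TUBA1A window precede the GENCODE start of the principal transcript. No complete motif lies in those bases, while the TUBB4B motifs all lie before both starts. A match is a description of letters and not of binding.

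The genes that fold, modify and bind tubulin were counted in lists. In all, 30 of 98 distinct tested genes (30.6%) were called, beside 35.5% of all tested genes, so the counts below are descriptions and set no list apart. Of 12 tested folding cofactors and prefoldin subunits, 2 rose and 2 fell. Cofactor TBCD, which helps to assemble the dimer, rose (log2 0.21) as did the GTPase ARL2 that works with it (0.22), although ARL2 overlapped between the groups and lost its call in 7 of 16 alternatives. The prefoldin subunit PFDN2, which hands nascent tubulin to the chaperonin, fell from 177 ± 4.41 to 149 ± 7.53 FPKM (-0.25), and TBCEL fell (-0.29). Of 8 subunits of the CCT chaperonin, which folds tubulin, 3 fell and none rose: CCT4 (-0.33), CCT7 (-0.20) and TCP1 (-0.12, lost in 5 of 16 alternatives). The median log2 difference was -0.07 in both lists.

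Of 11 tested genes of the mRNA decay route that responds to free tubulin, 2 were called, beside 35.5% of all tested genes. CNOT11, the CCR4-NOT subunit that binds SCAPER, rose (0.16) and CNOT3 fell (-0.17). Both calls were fragile: that of CNOT3 was lost when scramble replicate 1 was left out (adjusted p = 0.0587 with limma), and that of CNOT11 in 4 of 6 fits that left out a library (mimic replicate 1, mimic replicate 3, scramble replicate 1 and scramble replicate 2), with an adjusted p of at most 0.0798. TTC5, the sensor itself, had a log2 difference of 0.04 (adjusted p = 0.532 with limma), and SCAPER lay under the filter. The list's median was 0.04.

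Of 16 tested enzymes that modify tubulin, 5 rose and none fell, beside 18.7% and 16.8% of all tested genes, with a median log2 difference of 0.10. VASH1, known to remove the final tyrosine of alpha-tubulin together with SVBP, had the largest change, from 1.17 ± 0.0480 to 2.64 ± 0.209 FPKM (log2 0.74, adjusted p = 0.00015 with limma). It was also in the authors' deposited table, where its log2 fold change was 1.16. SVBP (0.07) and TTL, which adds the tyrosine back (0.14), did not pass. The deacetylases SIRT2 (0.28) and HDAC6 (0.19), which act on alpha-tubulin, rose, while the acetylase ATAT1 (-0.19, adjusted p = 0.0576 with limma) did not pass. TTLL12 (0.15) and TTLL3 (0.24), of the ligase-like family, also rose. HDAC6, TTLL12 and TTLL3 lost their calls in 6, 4 and 6 alternatives.

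Of 11 tested genes that depolymerise, sequester or sever microtubules, 4 fell and 1 rose, beside 16.8% and 18.7% of all tested genes. The list's median was -0.07. The depolymerising kinesins KIF2C (-0.40, from 36.3 ± 0.426 to 27.3 ± 0.569 FPKM) and KIF18A (-0.35) fell, as did the stathmins STMN1 (-0.26) and STMN3 (-0.29), which hold free dimers. The severing enzyme SPAST rose (0.38); it was the fifth gene by p and is named after its value was seen. KIF2C and KIF18A act in mitosis, and most of the proliferation genes given above fell in the same libraries. A link between these falls was not tested.

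Of 19 tested microtubule-associated proteins and end binders, 5 rose and 1 fell, beside 18.7% and 16.8% of all tested genes. The list's median was 0.06. CLIP2, a plus-end protein, rose from 6.13 ± 0.363 to 9.46 ± 0.404 FPKM (0.55), MAP1S by 0.36 and the end binder MAPRE3 by 0.24, and EML4 fell (-0.49). Of 19 tested nucleation genes 2 rose, TUBG2 among them, and 3 fell, beside the same shares of all tested genes. MZT1, a small subunit of the gamma-tubulin ring, fell from 11.3 ± 0.8 to 6.22 ± 0.0571 FPKM (-0.77), the ring subunit TUBGCP3 by -0.42 and the centrosomal CDK5RAP2 by -0.37. MAP7, a microtubule-associated protein under the filter, had a log2 fold change of 1.44 in the authors' deposited table. Across these lists, with each gene counted once, 16 of the 98 tested genes were called higher and 14 lower; the former was 9 without mimic replicate 3 and also 9 without scramble replicate 1.

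**Figure D5:**
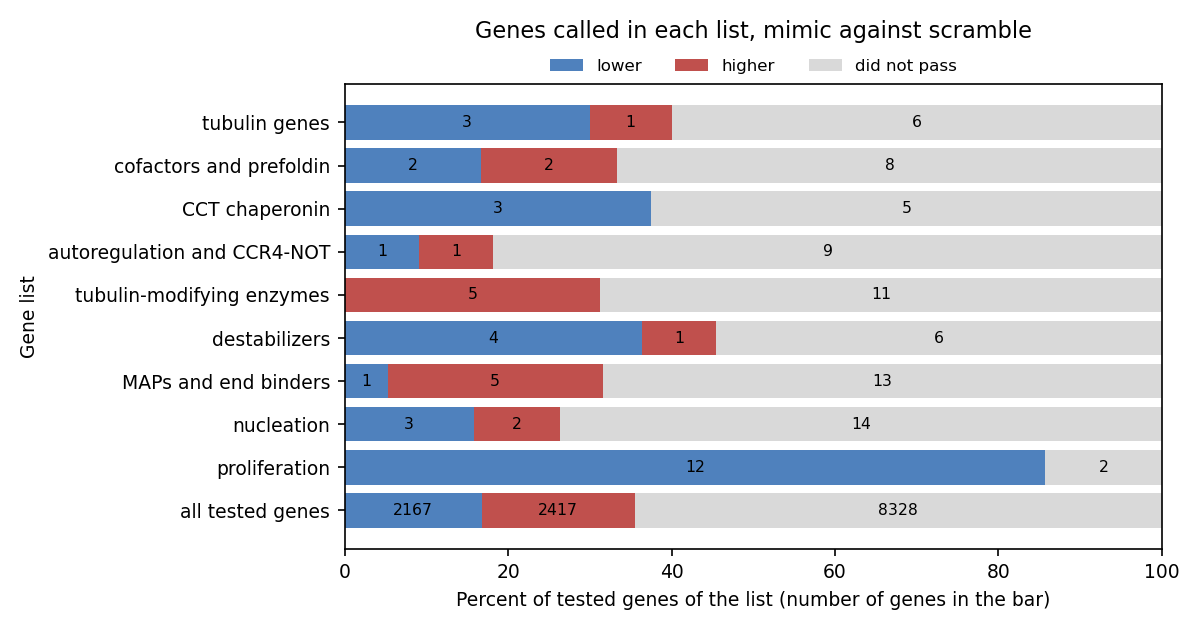
Percent of tested genes of each list called lower (blue), higher (red) or neither (grey), with the number of genes written in the bars and all tested genes in the lowest bar. The tubulin genes have 3 lower and 1 higher of 10, the modifying enzymes 5 higher of 16 and the proliferation genes 12 lower of 14, beside 2167 lower and 2417 higher of 12912.

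None of the 10 members was among the 401 genes of the authors' deposited table, whose smallest absolute log2 fold change is 1.0005. The tubulin changes, of at most 0.52 on the scale used here, lie below that limit. The 5 genes whose profile over the 6 libraries was most like that of TUBA1A were KLHDC3, EFEMP1, DUSP3, ENG and SESN1. Their distance from the profile of TUBA1A was 0.0350 to 0.0756 on the log2 scale, as the root of summed squared differences after centring each gene. With 6 libraries in 2 groups this likeness is mostly that of the group difference, as all 5 rose, by 0.48 to 0.57.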

How the data were processed

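The 6 libraries were grouped by title. Build GRCh38 and DESeq2 1.26.0, featureCounts 2.0.1, HISAT2 2.1.0 and Trimmomatic 0.39 are listed, without roles, per the submitters' processing notes. Annotation, strand use and FPKM formula were not given in the sources used here. FPKM values per gene and library were deposited by the authors. They also deposited a filtered comparison table with mean normalized counts (a signal), log2 fold changes, a test statistic (a score) and p-values, per the file headers. The score has the opposite sign of the fold change in all 401 genes, and the fold change has the sign of mimic minus scramble FPKM in all 401.

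Genes were named from a symbol table and GENCODE release 29 (57447 of 58051 identifiers); TBCE was not matched and not analysed here. FPKM times union exon length gave whole reads (tolerance 0.02) for 95.3% to 95.6% of low values. Differences in log2(FPKM + 1) were fitted with limma 3.58.1 under R 4.3.3, with a trended variance and no covariate, for the 12912 genes whose mean reached 0.5 FPKM, at a Benjamini-Hochberg threshold of 0.05; the script was tested on simulated data. The table held 0 columns of other samples.

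Members and lists were chosen with earlier results of these data known. Named are the members, other tubulins and pseudogenes above the filter, up to 4 called genes per list by p, and the 5 profiles nearest that of the member with the largest change; HDAC6, ATAT1, SVBP, TTL, TTC5, SCAPER, SPAST, the chromosome 12 neighbours and genes under the filter were added after their values were seen. Alternatives were other pseudocounts, filters, scalings and variance models, voom on recovered reads, a replicate block and each library left out.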

Additional observations from a re-analysis of the deposited data

How the results depend on the processing

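Under all 16 alternatives the 10 tubulin members kept their direction and their side of the threshold, in 157 of 157 values; the filter of 5 FPKM leaves out TUBA4A, TUBB2B and TUBB3. The log2 difference ran from 0.48 to 0.56 for TUBA1A, -0.27 to -0.22 for TUBA1B, -0.44 to -0.38 for TUBA1C and -0.35 to -0.28 for TUBB4B, with a largest adjusted p of 0.0227 (limma, TUBB4B, no filter). Leaving out 1 library moved the differences of uncalled members widely: 0.07 to 0.26 for TUBA4A, 0.01 to 0.13 for TUBB2A, 0.02 to 0.11 for TUBB2B, -0.10 to -0.02 for TUBB3, -0.09 to -0.05 for TUBB and 0.00 to 0.06 for TUBB6. It gave 3387 to 3998 called genes against 4584, and 9 to 14 microtubule genes called higher against 16 and 13 to 15 called lower against 14. The TUBD1 log2 difference, not called, was 0.01, but -0.0122 after quantile normalization, -0.0213 without mimic replicate 1 and -0.0507 without scramble replicate 1; leaving out 1 library gave -0.0507 to 0.0530. On the TPM scale 58.1% of calls were higher, against 52.7%.

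Whether the replicate numbers pair the samples could not be settled. Deviations from the group means of same-numbered libraries correlated at -0.0619, 0.241 and 0.0541, and mimic replicate 1 correlated best with scramble replicate 3 (0.230). The highest correlation was that of mimic replicate 2 with scramble replicate 2. Deviations from a mean of 3 libraries depend on each other, so these values cannot exclude a pairing. With the replicate block 4609 genes were called, with 3 members lower and 1 higher, and limma's adjusted p was 0.0012 for the TUBA1A log2 difference of 0.52, 0.00881 for the TUBA1B log2 difference of -0.25, 0.00244 for the TUBA1C log2 difference of -0.42 and 0.00455 for the TUBB4B log2 difference of -0.31; a block cannot move the differences of this balanced design. The length of the principal transcript, an alternative added after seeing the data, left each gene's ratio between groups as it was, but moved levels between genes, sums and shares: the TUBB share of the beta sum was apart between groups in deposited FPKM (18.8% with mimic, 17.9% with scramble) and overlapped by principal transcript (15.3% and 14.8%). Depth limits TUBB2B, TUBB3 and TUBA4A, with at most 388 reads in a library.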
